A study of Ambystoma mexicanum with 12 samples.

Results

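The genes described here belong to the piRNA pathway and the germline. They are the rows of the deposited expression table whose symbol is TDRD9, TDRD1, TDRD5, TDRD7, PIWIL1, PIWIL2, DDX4, MAEL, MOV10L1 or ASZ1. Of these 10 genes, 8 had values among the 15091 genes of the table, and TDRD5 and PIWIL2 were not analysed here. TDRD9 is the gene on which the set was centred, and the study itself names it among the most raised genes in these same libraries, so its direction is not independent evidence.

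PIWI-interacting RNAs (piRNAs) are short RNAs that guide PIWI proteins, a branch of the Argonaute family, to the transcripts of transposable elements. In animals the pathway is best known in the germline, where PIWI proteins work in cytoplasmic granules next to mitochondria together with RNA helicases and with Tudor proteins, which bind methylated arginines on their partners. The spinal cord is not a tissue in which these genes are usually studied.

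Spinal cord of the axolotl (Ambystoma mexicanum), a salamander that regrows its spinal cord, was sequenced in 12 libraries, 3 in each of 4 groups, and tissue from 10 animals was pooled for each library. All animals received either an antisense inhibitor of the microRNA miR-200a or a control inhibitor by pressure injection into the central canal. The injured animals then had a piece of cord removed and were sampled at 4 days post-injury (dpi), and the groups are called uninjured control, 4 dpi control, uninjured inhibitor and 4 dpi inhibitor. The control libraries therefore also carry an injection, the time between injection and sampling in uninjured animals is not given, and the animals' age, sex and strain are not given. Libraries are named by group and by the number in their labels. The uninjured control group has libraries 1, S2 and 5, where S2 carries no animal number.

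Values are TPM (transcript abundance relative to the library total), which are scaled for gene length, so levels can be compared between genes within a library. Between libraries they are shares of a total, so a comparison also depends on the other genes. The factors of the median-of-ratios scaling used below ran from 0.659 in uninjured inhibitor 7 to 1.80 in uninjured control 1. Each library summed to 1e+06 TPM, the sequencing depth is unknown, and a gene given as 0 is described only as listed at 0. Between 511 and 1399 of the 15091 genes were listed at 0 in a library, with the most in uninjured inhibitor 7. The summed level of 6 neuron genes was between 926 and 7494 TPM and that of 6 ependymoglia genes between 867 and 4638 TPM in each library, so the tissue named in the labels was present. Genes of skeletal muscle (6 genes) summed to 6282 to 29785 TPM in uninjured control and 2280 to 6428 TPM in uninjured inhibitor, and genes of epidermis (6 genes) to 373 to 1106 TPM and 188 to 353 TPM. All 6 muscle genes and 5 of 6 epidermis genes were called lower with the inhibitor without injury, as were 6201 of all 14764 genes tested. After median-of-ratios scaling, described below, 0 muscle genes and 2 epidermis genes were called lower, as were 1947 of all genes tested. Quantile normalization gave 5 muscle genes and 2 epidermis genes, where 2881 of all 14764 genes were called in either direction. The part of muscle and epidermis in the decreases of other genes was not tested. Leukocyte genes (8 genes, all detected in all 12 libraries) summed to 127 to 130 TPM in uninjured control, 1168 to 1262 TPM in 4 dpi control, 779 to 909 TPM in uninjured inhibitor and 2063 to 2416 TPM in 4 dpi inhibitor.

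A gene was called changed when limma's adjusted p (Benjamini-Hochberg over 14764 genes) was under 0.05 and the difference on the log2(TPM + 0.5) scale was larger than 1 in either direction. All 8 genes passed the filter on low values, but TDRD9 passed only through its inhibitor libraries and PIWIL1 only through its control libraries, so that these 2 genes were bound to differ and their tests describe the values rather than support a difference. Of all genes tested, 45.3% were called between uninjured inhibitor and uninjured control, 490 higher and 6201 lower, and the median difference of all genes was −0.997. At 4 dpi 1.88% were called between inhibitor and control, with a median difference of −0.62. Injury alone changed 0.935% of genes in control animals and 0.433% in inhibitor-treated animals. The average of both inhibitor effects was called in 39% of genes, with a median of −0.83, and 0.0271% of genes (4 genes, by adjusted p alone) showed an inhibitor effect that differed between injured and uninjured cord. Because the typical gene had lower values in the inhibitor libraries on this scale, differences are also given after median-of-ratios scaling. It brought the median difference without injury to −0.18 and the split of calls to 2222 higher and 1947 lower. Quantile normalization brought that median to −0.023, with 2881 of the 14764 genes called.

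The largest signal of the set lay in TDRD9 (ENSG00000156414), a Tudor-domain RNA helicase that in mice is required in male germ cells for silencing of transposons. TDRD9 was listed at 0 in all 3 uninjured control libraries. In uninjured inhibitor libraries 5, 6 and 7 it stood at 39.4, 23.1 and 46.0 TPM. The group mean of 36.1 ± 11.8 TPM (SD, n = 3) was above that of 81.2% of the genes in the table, and the 2 uninjured groups did not overlap.

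After injury the level of TDRD9 depended on the library. It was listed at 0 in 4 dpi control 1 and 5 and stood at 0.311 TPM in 4 dpi control 6. With the inhibitor at 4 dpi it stood at 17.1 TPM in library 5, was listed at 0 in library 6 and stood at 0.124 TPM in library 7. The uninjured inhibitor libraries were above every other library, 4 dpi inhibitor 5 lay between them and the rest, and the other 2 libraries of that group overlapped with the controls.

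On the log2(TPM + 0.5) scale the difference between uninjured inhibitor and uninjured control was 6.14 ± 1.01 (SE), with a limma adjusted p of 0.0019. It was the most positive difference of the 14764 genes tested. Its size depends on the 0.5 TPM added, because the controls were listed at 0, and no fold change is given. The call held under all 21 alternatives, with differences from 5.16 to 8.44 and limma adjusted p from 6.006e-05 to 0.0119. After median-of-ratios scaling the difference was 6.64. All of these reuse the libraries in which TDRD9 was already known to be raised, so they are not independent support. An exact permutation test of these 6 libraries gave a two-sided p of 0.1, the smallest that 3 against 3 can give.

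At 4 dpi the inhibitor difference of TDRD9 was 1.59 ± 1.01 (SE), with a limma adjusted p of 0.266. It rested on library 5: without that library the difference was −0.073. The exact permutation test gave p = 0.7 there. Injury in inhibitor-treated animals gave a difference of −4.32 ± 1.01 (SE), the most negative of all genes tested, which missed the threshold with a limma adjusted p of 0.08. Without 4 dpi inhibitor 5 the difference was −5.98 with an adjusted p of 0.000558, and without uninjured control S2, which is not part of the contrast, it was −4.32 with an adjusted p of 0.0472. Injury in control animals gave 0.23 ± 1.01 (SE, limma adjusted p = 0.943).

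The difference between both inhibitor effects on TDRD9, tested as an interaction, was −4.55 ± 1.42 (SE), with an unadjusted p of 0.00709 and a limma adjusted p of 0.658, so a different effect in injured cord was not shown over all genes. Without 4 dpi inhibitor 5 it was −6.21 with a limma adjusted p of 0.00479, but that library is the only 1 of its group with TDRD9 raised. Averaged over both states, TDRD9 was 3.86 ± 0.71 (SE) higher with the inhibitor (limma adjusted p = 0.00124). A two-sided exact permutation test that kept libraries within their injury state gave p = 0.035 over 400 arrangements, of which the smallest possible p is 0.005, and p = 0.065 without 4 dpi inhibitor 5. These tests reuse the libraries in which TDRD9 was already known to be raised, so they describe its values and are not independent support.

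**Figure D1:**
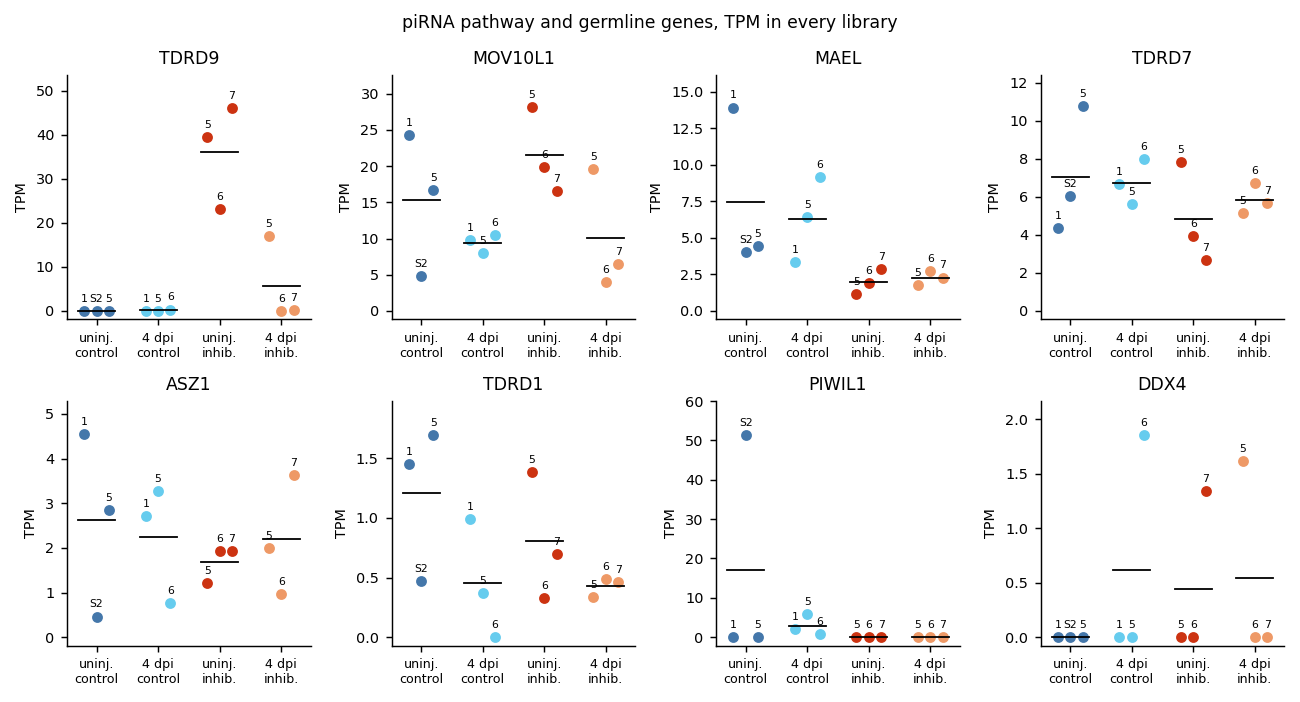
TPM (vertical axes, linear, separate for each gene) of the 8 genes in the 12 libraries, grouped by treatment along the horizontal axes. Points are libraries with their numbers and lines are group means. TDRD9 is high in the 3 uninjured inhibitor libraries and in 4 dpi inhibitor 5, and PIWIL1 is high in uninjured control S2. In these unscaled values MAEL is lower in the 6 inhibitor libraries than in the 6 control libraries.

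Genes of blood cells also changed with treatment and injury. The summed leukocyte genes were between 127 and 130 TPM in uninjured control, where TDRD9 was listed at 0. They were between 779 and 909 TPM in uninjured inhibitor, where TDRD9 was at least 23.1 TPM. In 4 dpi control they were between 1168 and 1262 TPM, where TDRD9 was at most 0.311 TPM. In 4 dpi inhibitor the leukocyte sum was highest in library 7 (2416 TPM), where TDRD9 was 0.124 TPM, and lowest in library 5 (2063 TPM), where it was 17.1 TPM. Most of the leukocyte sum was LYZ, at 77.9 to 89.5 TPM in uninjured control and 1610 to 1906 TPM in 4 dpi inhibitor. Of 8 leukocyte genes, 5 rose with the inhibitor without injury, where 490 of all 14764 genes rose. With injury in control animals 7 rose, where 129 of all 14764 genes rose. After median-of-ratios scaling and after quantile normalization 8 of 8 rose in both comparisons. With median-of-ratios scaling 2222 of all 14764 genes rose with the inhibitor without injury, and 125 with injury in control animals. Red blood cell genes (5 of 6 with values) summed to 136 to 291 TPM in uninjured inhibitor, 13.9 to 32.5 TPM in uninjured control and 41.6 to 197 TPM in 4 dpi control. In 4 dpi inhibitor 5, 6 and 7 they summed to 130, 46.1 and 200 TPM. Most of the sum in uninjured inhibitor was HBD, at 153, 282 and 133 TPM in libraries 5, 6 and 7. ALAS2 was lower there, at 2.03 to 6.69 TPM against 8.68 to 10.2 TPM in uninjured control. Of the 4 red cell genes tested, 1 was called higher and 1 lower with the inhibitor without injury, with a median of −0.99. The part of leukocytes or of red cells in the level of TDRD9 was not tested. Of 8 genes of gonadal support cells, only DMRT1, FOXL2 and FSHR had values, and they summed to 1.62 to 4.62 TPM in uninjured inhibitor and 3.07 to 4.87 TPM in uninjured control. In bulk tissue a change in the number of cells of a type and a change in RNA per cell cannot be told apart.

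Few genes shared the pattern of TDRD9. Among the 15091 genes it was the only 1 listed at 0 in every uninjured control library and at 20 TPM or more in every uninjured inhibitor library, and 0 genes showed the reverse. At a level of 2 TPM there were 4 such genes, TDRD9, HAO1, F2 and PLA2G2E. TDRD9 was also the only 1 with at least 10 TPM in 4 dpi inhibitor 5 and at most 0.5 TPM in 4 dpi inhibitor 6 and 7. All these levels were set after the values of TDRD9 had been seen. That TDRD9 meets them follows from the choice, and the counts are a description.

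Likeness was also measured as the root mean square difference between centred log2(TPM + 0.5) profiles over the 12 libraries, among 13795 genes tested with a mean of at least 1 TPM. The median gene differed from TDRD9 by 3.15. The closest was HAO1, a peroxisomal oxidase of liver, at 1.32, followed by F2, prothrombin, at 1.48, PLA2G2E, a secreted phospholipase, at 1.66, CCDC152, a coiled-coil protein, at 1.87, and MRPL27, a protein of the mitochondrial ribosome, at 1.91. No gene of the piRNA or germ cell lists was among these 5. HAO1 stood at 6.81, 2.60 and 3.99 TPM in uninjured inhibitor 5, 6 and 7, at 2.14 TPM in 4 dpi inhibitor 5, and was listed at 0 in the other 8 libraries. F2 stood at 5.32, 8.70 and 3.62 TPM in uninjured inhibitor 5, 6 and 7, at 1.73 TPM in 4 dpi inhibitor 5 and at 1.21 TPM in 4 dpi control 1. Both were picked for their likeness over all 12 libraries, so where they match TDRD9 follows from the choice. A list of 11 liver genes, of which 8 had values, summed to 135 to 238 TPM in uninjured control and 21.2 to 35.0 TPM in uninjured inhibitor. Most of this sum was TAT, at 137, 231 and 130 TPM in uninjured control 1, S2 and 5. FGG was higher in uninjured inhibitor, at 2.71 to 4.45 TPM against 0.527 to 2.64 TPM. The other liver genes were not: ALB, APOB and F9 overlapped between these groups, and FGA was listed at 0 in both. FGB and CPS1 were above 0 only in uninjured control 1 and S2, respectively, of these libraries. The part of liver genes in the level of TDRD9 was not tested.

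The genes next to TDRD9 in the axolotl genome did not share its values of 0, but XRCC3 was also higher in uninjured inhibitor. In the order of the RefSeq annotation of assembly UKY_AmexF1_1, the 3 genes on one side are XRCC3, ZFYVE21 and PPP1R13B, and those on the other are RD3L, which was not analysed here, ASPG and GPR132. The nearest of these with a value, PPP1R13B, ranged from 10.7 to 31.5 TPM in uninjured control and from 5.09 to 9.54 TPM in uninjured inhibitor. ZFYVE21 ranged from 14.9 to 42.0 TPM and from 36.0 to 51.5 TPM in the same groups, and XRCC3 from 3.43 to 4.16 TPM and from 6.01 to 8.17 TPM. For XRCC3 these 2 groups did not overlap. At 4 dpi XRCC3 ranged from 4.00 to 6.46 TPM in control and from 4.15 to 10.1 TPM with the inhibitor. ASPG was lower, with 15.5 to 41.3 TPM in uninjured control and 9.79 to 11.7 TPM in uninjured inhibitor. GPR132 overlapped, with 1.42 to 2.85 TPM and 1.25 to 1.53 TPM. None of the 5 was listed at 0 in any library. A link between the levels of these genes and TDRD9 was not tested.

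TDRD9 belongs to a family of DExH-box helicases with members in all cells. The table carries human identifiers, 2 human transcripts stand behind the TDRD9 row, and the sources used here do not say how axolotl reads were divided among relatives. The closest relatives did not rise with TDRD9. DHX36, a helicase that unwinds G-quadruplexes, was at 16.2 ± 6.03 TPM in uninjured control and 10.7 ± 0.80 TPM in uninjured inhibitor (SD, n = 3), and was not called. DHX57 fell from 16.3 ± 0.51 to 6.80 ± 1.39 TPM (SD, n = 3, limma adjusted p = 0.00365), and YTHDC2, which also acts in meiotic germ cells of mice, fell from 2.75 ± 1.21 to 0.65 ± 0.02 TPM (SD, n = 3, limma adjusted p = 0.0112). Neither of these decreases was called after median-of-ratios scaling.

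The other Tudor proteins of the set, TDRD1 and TDRD7, were not called in any comparison. TDRD1, a scaffold that binds methylated PIWI proteins, stood at 1.46, 0.473 and 1.70 TPM in uninjured control 1, S2 and 5, and at 0.988, 0.372 and 0 TPM in 4 dpi control 1, 5 and 6. It stood at 1.38, 0.328 and 0.700 TPM in uninjured inhibitor 5, 6 and 7, and at 0.338, 0.488 and 0.465 TPM in the 4 dpi inhibitor libraries. All 4 groups overlapped at this low level, and the inhibitor difference without injury was −0.39 ± 0.53 (SE, limma adjusted p = 0.546), which turned to 0.23 after median-of-ratios scaling.

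TDRD7, which takes part in RNA granules of germ cells and also of the eye lens, was detected in every library. Its values were 4.35, 6.02 and 10.8 TPM in uninjured control 1, S2 and 5, and 6.65, 5.61 and 7.97 TPM in 4 dpi control 1, 5 and 6. They were 7.83, 3.93 and 2.67 TPM in uninjured inhibitor 5, 6 and 7, and 5.16, 6.70 and 5.69 TPM in the 4 dpi inhibitor libraries. The groups overlapped, with an inhibitor difference without injury of −0.54 ± 0.40 (SE, limma adjusted p = 0.262) that became 0.32 after median-of-ratios scaling.

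PIWIL1, the only PIWI protein analysed here, binds piRNAs directly, and it was above 0 in control libraries alone. It stood at 51.5 TPM in uninjured control S2 and was listed at 0 in uninjured control 1 and 5. In 4 dpi control 1, 5 and 6 it stood at 1.99, 5.79 and 0.890 TPM. In all 6 inhibitor libraries it was listed at 0. The 4 libraries above 0 were thus all controls.

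As PIWIL1 passed the filter only through control libraries, its fitted values are a description. The average inhibitor effect met the threshold, at −2.36 ± 0.96 (SE, limma adjusted p = 0.046), but it was called under only 6 of 19 alternatives, and after median-of-ratios scaling the adjusted p was 0.0931. It was not called without injury, at −2.23 ± 1.35 (SE, limma adjusted p = 0.169), or at 4 dpi, at −2.48 ± 1.35 (SE, limma adjusted p = 0.21). At 4 dpi, where the control libraries were all above 0 and the inhibitor libraries all listed at 0, it became called without uninjured control S2, whose value widens the shared spread of the gene. Without S2 the average effect was −1.24 with an adjusted p of 0.0166.

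Uninjured control S2 stood apart in other genes as well. In it, 49 genes including PIWIL1 were at 10 TPM or more while listed at 0 in uninjured control 1 and 5. The same count, taken in each other library against the remaining 2 of its group, was at most 6. The 48 genes other than PIWIL1 summed to 834 TPM in S2, to 33.3, 185 and 31.3 TPM in 4 dpi control 1, 5 and 6, and to 0.496 to 14.8 TPM in the inhibitor libraries. Of these 48, 41 were above 0 in a 4 dpi control library and 33 were highest in 4 dpi control 5, the library in which PIWIL1 was also highest of its group, and 40 of the 49 were listed at 0 in all 6 inhibitor libraries. Germ cell genes were not uniformly high in S2. SMC1B, the meiotic cohesin subunit, SPO11, which cuts DNA in meiosis, and NANOS3, an RNA-binding protein of primordial germ cells, picked after their values were seen, stood at 16.1, 7.17 and 4.10 TPM there. DDX4, DAZL, SYCP3 and STRA8 were listed at 0 in S2, and SYCP1, MEIOB, ASZ1 and MOV10L1 were at their lowest of the uninjured controls, at 0.94, 1.21, 0.463 and 4.87 TPM. The 24 other germ cell and meiosis genes with values summed to 87.6, 41.6 and 28.4 TPM in uninjured control 1, S2 and 5. S2 also had the highest sum of 6 skeletal muscle genes of all libraries, 29785 TPM, against 6282 and 14895 TPM in uninjured control 1 and 5. The part of what sets S2 apart in the level of PIWIL1 was not tested.

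**Figure D2:**
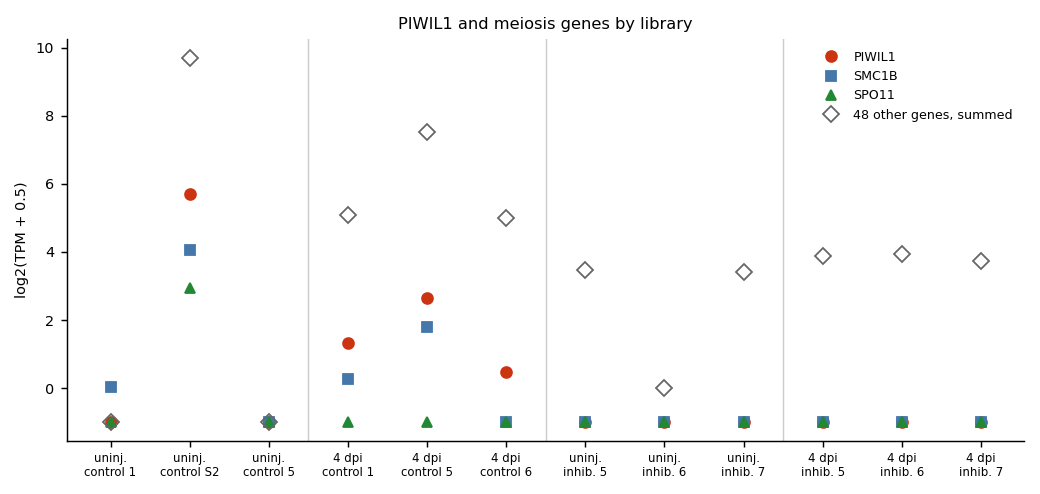
log2(TPM + 0.5) (vertical axis) of PIWIL1, SMC1B, SPO11 and the sum of the 48 other genes that were at 10 TPM or more in uninjured control S2 and listed at 0 in uninjured control 1 and 5, by library (horizontal axis). A value of −1 means listed at 0. S2 is highest in all 4 series, and among the other libraries the 4 dpi control libraries are the highest in PIWIL1 and in the sum.

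DDX4 (Vasa), the helicase that marks germ cells in many animals, was listed at 0 in 9 of 12 libraries. The values above 0 were 1.86 TPM in 4 dpi control 6, 1.34 TPM in uninjured inhibitor 7 and 1.62 TPM in 4 dpi inhibitor 5, 1 library in each of 3 groups. These levels followed neither the treatment nor the injury, and the inhibitor difference without injury was 0.63 ± 0.79 (SE, limma adjusted p = 0.509).

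MAEL, a protein of the germ granule that mice need for silencing of transposons, moved in the opposite direction to TDRD9. It stood at 13.9, 4.00 and 4.47 TPM in uninjured control 1, S2 and 5, and at 3.35, 6.44 and 9.17 TPM in 4 dpi control 1, 5 and 6. With the inhibitor it stood at 1.13, 1.93 and 2.89 TPM in uninjured 5, 6 and 7, and at 1.74, 2.76 and 2.28 TPM in 4 dpi 5, 6 and 7. In unscaled TPM the highest of the 6 inhibitor libraries (uninjured 7, 2.89 TPM) lay below the lowest of the 6 control libraries (4 dpi 1, 3.35 TPM). The median-of-ratios size factors of these 2 libraries were 0.659 and 1.69, so this separation depends on the scaling. Without injury MAEL fell by 1.53 on the log2(TPM + 0.5) scale, with an SE of 0.50 and a limma adjusted p of 0.0221. At 4 dpi the difference was −1.22 ± 0.50 (SE, limma adjusted p = 0.121), and the average effect was −1.38 ± 0.35 (SE, limma adjusted p = 0.0059).

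The decrease of MAEL is read beside that of the median gene, which was −0.997 without injury. After median-of-ratios scaling the difference without injury was −0.71 (limma adjusted p = 0.241) and the average effect −0.69 (limma adjusted p = 0.114), so neither was called. After quantile normalization they were −0.27 (limma adjusted p = 0.721) and −0.39 (limma adjusted p = 0.429), and neither was called. The call without injury was also lost when uninjured control 1 was left out, when uninjured inhibitor 5 was left out, or when only the 6 libraries compared were fitted.

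MOV10L1, the helicase that binds piRNA precursors, was the best expressed member of the set in most libraries. It stood at 24.4, 4.87 and 16.7 TPM in uninjured control 1, S2 and 5, and at 9.85, 8.06 and 10.4 TPM in 4 dpi control 1, 5 and 6. It stood at 28.2, 19.9 and 16.6 TPM in uninjured inhibitor 5, 6 and 7, and at 19.7, 4.03 and 6.52 TPM in 4 dpi inhibitor 5, 6 and 7. The uninjured groups overlapped, and 4 dpi inhibitor 5 was again the highest of its group, as for TDRD9. The inhibitor difference without injury was 0.71 ± 0.58 (SE, limma adjusted p = 0.303) where the median gene was at −0.997, and after median-of-ratios scaling it was 1.63 and was called (adjusted p = 0.0376). Injury in inhibitor-treated animals gave −1.32 ± 0.58 (SE, limma adjusted p = 0.26). MOV10, its relative outside the germline, stood at 33.1 ± 40.4 TPM in uninjured control and 6.04 ± 2.79 TPM in uninjured inhibitor (SD, n = 3), and was not called without injury.

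ASZ1, an ankyrin repeat protein that holds the piRNA machinery at mitochondria, stood at 4.56, 0.463 and 2.85 TPM in uninjured control 1, S2 and 5, and at 2.71, 3.28 and 0.762 TPM in 4 dpi control 1, 5 and 6. It stood at 1.20, 1.93 and 1.92 TPM in uninjured inhibitor, and at 1.99, 0.956 and 3.64 TPM in 4 dpi inhibitor. The groups overlapped in all comparisons, and the inhibitor difference without injury was −0.24 ± 0.63 (SE, limma adjusted p = 0.764), or 0.52 after median-of-ratios scaling.

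Counted over the set, 2 of 8 genes were called between uninjured inhibitor and uninjured control, TDRD9 higher and MAEL lower, against 45.3% of all genes. The median of the 8 was −0.31, against −0.997 for all genes. After median-of-ratios scaling the 2 called genes were TDRD9 and MOV10L1, both higher, where 4169 of all 14764 genes were called. The median of the 8 was then 0.42, against −0.18 for all genes. After quantile normalization TDRD9 alone was called, where 2881 of all 14764 genes were called. The median of the 8 was then 0.86, against −0.023 for all genes. At 4 dpi and in both injury comparisons 0 of 8 were called by limma. By unadjusted limma p under 0.05 MAEL passed at 4 dpi, where 4788 of all 14764 genes passed. TDRD9 and MOV10L1 passed for injury with the inhibitor, where 2602 of all 14764 genes passed. For the average inhibitor effect 3 of 8 were called, TDRD9 higher and MAEL and PIWIL1 lower, against 39% of all genes. The shares were below or near those of all genes.

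**Figure D3:**
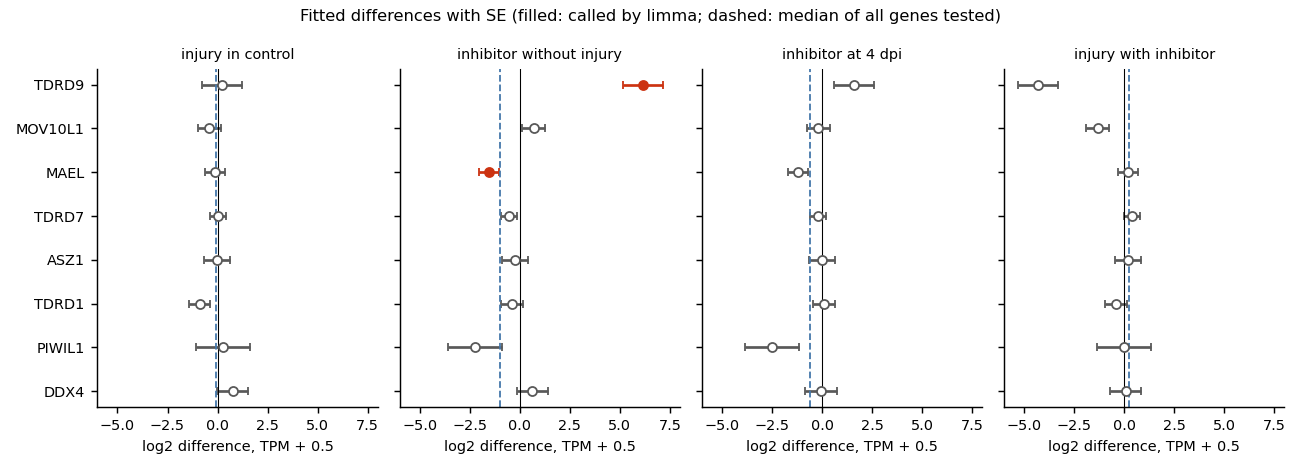
Fitted difference on the log2(TPM + 0.5) scale with its SE (horizontal axes) for the 8 genes (vertical axis) in 4 comparisons from limma. Filled points were called, and dashed lines mark the median of all 14764 genes tested. TDRD9 stands at 6.14 without injury and −4.32 for injury with the inhibitor, while TDRD7, ASZ1, TDRD1 and DDX4 lie within 1 of 0 in all 4 panels.

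The wider pathway was read from 27 further piRNA genes, of which 18 had values and were tested. Without injury 4 of the 18 fell with the inhibitor, 0 rose and 14 were not called, with a median of −0.23, against 45.3% of all genes called (6201 of 14764 lower) and a median of −0.997. The split depended on the scaling: it was 1 higher and 1 lower with a median of 0.46 after median-of-ratios scaling, and 2 higher and 1 lower with a median of 0.75 after quantile normalization. Of all 14764 genes, 4169 and 2881 were called under these scalings, with medians of −0.18 and −0.023. SND1, a Tudor nuclease found in most cells, stood at 111 ± 19.1 TPM in uninjured control and 27.4 ± 10.1 TPM with the inhibitor (SD, n = 3) and fell by 2.04 on the log2 scale (limma adjusted p = 0.0018). PRMT5, the enzyme that places the arginine methyl marks read by Tudor domains, fell from 125 ± 18.0 to 58.8 ± 11.9 TPM (SD, n = 3, limma adjusted p = 0.00302). TDRD3, a Tudor protein that binds methylated histones, and GTSF1, a cofactor of PIWI proteins, fell by 1.08 each (limma adjusted p = 0.0109 and 0.0134). SND1 and PRMT5 act in many tissues besides the germline. After median-of-ratios scaling only SND1 of these 4 was still called, at −1.10, and after quantile normalization only SND1, at −1.50.

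At 4 dpi SND1 alone was called, at −1.35 ± 0.31 (SE, limma adjusted p = 0.0494), against 1.88% of all genes. After median-of-ratios scaling and after quantile normalization 0 of the 18 were called at 4 dpi, where 11 and 7 of all 14764 genes were. For the average effect SND1, TDRD3 and TDRKH, which joins PIWI proteins to mitochondria, were lower, where 5518 of all 14764 genes were called lower. The median of the 18 was −0.23, against −0.83 for all genes. After median-of-ratios scaling 0 of the 18 were called for the average effect. After quantile normalization 2 were higher and 1, SND1, was lower. Of all 14764 genes, 2677 and 1890 were called for the average effect under these scalings. Of the enzymes that finish piRNAs, HENMT1, which methylates their ends, was at 3.78 ± 2.03 TPM in uninjured control and 5.73 ± 0.74 TPM in uninjured inhibitor (SD, n = 3), and was not called without scaling. The genes of this list that were called higher after scaling are not named here. The methylosome subunit WDR77 was the best expressed gene of the list and stayed uncalled, at 198 ± 33.0 and 189 ± 22.3 TPM in the same groups (SD, n = 3).

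Most other genes of germ cells and meiosis had low values or were listed at 0. Of 42 listed genes, 24 had values and 18 were not analysed here, and 17 of the 24 never passed 5 TPM and 13 were listed at 0 in 6 or more libraries. Of the 16 tested, 1 rose and 1 fell without injury, against 45.3% of all genes called, with a median of 0.10. Under median-of-ratios scaling and under quantile normalization 3 were higher and 1 lower, with medians of 0.56 and 0.99. MEIOB, a DNA-binding protein of meiotic recombination, had values of 2.76, 1.21 and 1.24 TPM in the uninjured control libraries, against 5.39, 7.66 and 3.68 TPM in uninjured inhibitor. These groups did not overlap, and MEIOB rose by 1.46 ± 0.38 (SE, limma adjusted p = 0.00862), or 2.26 after median-of-ratios scaling. At 4 dpi MEIOB was at 1.34 ± 0.12 TPM with the inhibitor and 1.73 ± 0.16 TPM in control (SD, n = 3), so that MEIOB, like TDRD9, was highest in uninjured inhibitor, though its interaction was not called either.

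NANOS1, a repressor of translation that acts in germ cells and in neural tissue, stood at 50.9, 4.38 and 12.6 TPM in uninjured control 1, S2 and 5, against 0.335, 3.94 and 0.076 TPM in uninjured inhibitor 5, 6 and 7. It fell by 3.53 (SE 0.88, limma adjusted p = 0.00695), and fell by 2.88 after median-of-ratios scaling. At 4 dpi the groups overlapped, with 14.5, 3.86 and 3.82 TPM in control and 7.28, 3.02 and 3.89 TPM with the inhibitor. For the average effect NANOS1 was called lower, as were 5518 of all 14764 genes. That call was lost after median-of-ratios scaling (limma adjusted p = 0.0839) and after quantile normalization (limma adjusted p = 0.17). Averaged over both states SYCP1, which joins paired chromosomes in meiosis, was 1.03 ± 0.42 (SE) higher with the inhibitor (limma adjusted p = 0.0482). Of all 14764 genes, 238 were called higher for this effect. The call of SYCP1 was lost without uninjured control S2 (limma adjusted p = 0.0902). It was kept after median-of-ratios scaling (1.65, limma adjusted p = 0.00401) and after quantile normalization (1.93, limma adjusted p = 0.00207).

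The relatives of the members listed as somatic (17 helicases and Argonautes, all tested) are given for comparison, of which 15 were above 0 in every library. Without injury 12 of 17 fell, 0 rose and the median was −1.51, where 6201 of all 14764 genes were called lower and the median was −0.997. DDX41 fell from 46.9 ± 15.7 to 12.5 ± 2.81 TPM, DDX17 from 128 ± 38.6 to 33.8 ± 17.8 TPM and DHX9 from 69.1 ± 22.0 to 16.8 ± 1.74 TPM (SD, n = 3). DDX3X, a helicase of translation, fell from 63.6 ± 31.6 to 10.3 ± 10.0 TPM (SD, n = 3, limma adjusted p = 0.00332). AGO2, the Argonaute that slices microRNA targets, fell from 5.36 ± 3.43 to 0.92 ± 1.44 TPM (SD, n = 3, limma adjusted p = 0.0107). The 2 groups overlapped for AGO2, with 2.58 TPM in uninjured inhibitor 6 and 2.11 TPM in uninjured control S2. AGO2 was still called after median-of-ratios scaling (−1.77, limma adjusted p = 0.0385) but not after quantile normalization (−0.97, limma adjusted p = 0.14). At 4 dpi 0 of the 17 were called by limma. Without injury, 4 of the 17 were lower and 0 higher after median-of-ratios scaling, with a median of −0.75. After quantile normalization 4 were lower and 0 higher, with a median of −0.48. Of all 14764 genes, 4169 and 2881 were called under these scalings, with medians of −0.18 and −0.023.

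**Figure D4:**
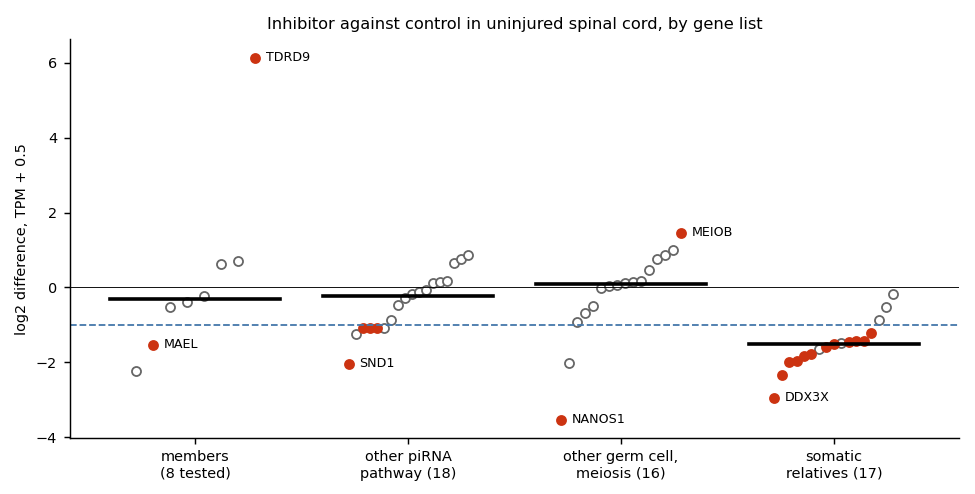
Inhibitor against control in uninjured cord, as a difference on the log2(TPM + 0.5) scale (vertical axis), for each tested gene of the set and of 3 lists (horizontal axis, with the number tested). Filled points were called by limma, short lines are list medians (−0.31, −0.23, 0.10 and −1.51) and the dashed line is the median of all genes, −0.997. TDRD9 lies at 6.14 and the next called gene above 0 is MEIOB at 1.46.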

How the data were processed

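Gene-level TPM for each of the 12 libraries were deposited by the authors. The submitters' processing notes name RSEM 1.1.6, Bowtie 0.12.1 and DESeq2 1.16.1 but not the step of any; the sources used here do not give the transcriptome or how human names were assigned. From these values, 14764 of 15091 genes reached 0.5 TPM in 3 or more libraries and were tested, and log2(TPM + 0.5) was fitted in limma 3.58.1 (R 4.3.3) over all 12 libraries with a variance trend and Benjamini-Hochberg adjustment. The interaction was called by adjusted p alone. Only TDRD9 was also tested by exact permutation. Figures used Python 3.11.15 and matplotlib 3.10.9, and the fit was tested on simulated data.

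The members and all gene lists were chosen with earlier results of these data known. Besides the 8 members, the text names up to 4 called genes per list and comparison by smallest adjusted p, 6 fixed somatic reference genes, and the 5 genes most like TDRD9. DHX57, HENMT1, WDR77, SMC1B, SPO11, NANOS3, DAZL, SYCP3, STRA8, TAT and FGG were chosen after their values were seen. So were LYZ, HBD, ALAS2 and the other liver genes named. All 10 members have an entry in RefSeq for UKY_AmexF1_1, which was used only for names and gene order.

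Libraries are pools of animals, and nothing says that they are separate batches of animals, so p-values measure the spread between these pools. The TPM keep no depth, which limits what can be said of low values: of 5130 genes averaging 20 TPM or more, 16 were listed at 0 in some library. Alternatives were other pseudocounts (0.1 and 1), quantile normalization, no filter or one of 2 TPM, scaling by the median of ratios, no trend, only the libraries compared, a replicate block, and each library left out; the other lists were refitted under both scalings and without uninjured control S2 after the data were seen.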

Additional observations from a re-analysis of the deposited data

How the results depend on the processing

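TDRD9 without injury and its average effect kept their call under every alternative that gave a value (21 and 20), which reuse the same libraries and are not independent support. Members called without injury went from 2 to 1 under quantile normalization and with only the libraries compared, and to between 1 and 2 with a library left out; under median-of-ratios scaling the count stayed at 2 but MAEL was lost and MOV10L1 gained (2 higher, 0 lower). At 4 dpi the count of 0 became 1 with the replicate block and 2 with only the libraries compared, and was 0 to 1 with a library left out. For the average effect the count of 3 became 2 with log2(TPM + 1), a filter of 2 TPM, the replicate block or no trend, 1 under median-of-ratios scaling and quantile normalization, and 2 to 3 with a library left out. It was 0 to 1 with a library left out for injury with the inhibitor and for the interaction. TDRD9 at 4 dpi ran from −0.073 to 2.50 with a library left out and turned negative without 4 dpi inhibitor 5; TDRD9 for injury with the inhibitor ran from −5.98 to −3.41, its interaction from −6.21 to −3.64, and the permutation p from 0.01 to 0.065. The cause of these moves was not tested.

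Of 11 pairs of libraries with the same number, 4 had deviations correlated over 0.1 (−0.29 to 0.51), so the numbers were not taken to pair libraries. With a replicate block 1 member was called for injury in control (PIWIL1) and 1 for injury with the inhibitor (TDRD9, −4.32, adjusted p = 0.0378). Fits of only the 4 dpi libraries, or of only the controls, gave no value for TDRD9, which then failed the filter.

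All genes called ran, over the settings other than leaving out a library, from 16 to 928 for injury in control, 2881 to 6928 for the inhibitor without injury, 0 to 2065 at 4 dpi, 58 to 1514 for injury with the inhibitor, 1890 to 6333 for the average effect and 4 to 6 for the interaction. The same counts ran from 85 to 311, 4804 to 7584, 0 to 1748, 8 to 461, 4336 to 6436 and 1 to 10 with a library left out. The unknown depth limits the members near 1 TPM, TDRD1 and DDX4, most.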

Other observations

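MLC1, a membrane protein of astrocytes that lies next to MOV10L1 in the RefSeq gene order of UKY_AmexF1_1, was looked at after its values had been seen. It stood at 36.3, 6.79 and 15.5 TPM in uninjured control 1, S2 and 5, where MOV10L1 stood at 24.4, 4.87 and 16.7 TPM. In uninjured inhibitor 5, 6 and 7 MLC1 stood at 27.7, 21.4 and 31.1 TPM, and in 4 dpi inhibitor 5, 6 and 7 at 13.9, 5.59 and 12.9 TPM. MOV10L1 stood at 28.2, 19.9 and 16.6 TPM and at 19.7, 4.03 and 6.52 TPM in these groups. Both genes were lowest in S2 among the uninjured controls and in library 6 among the 4 dpi inhibitor libraries, but in uninjured inhibitor 7 MLC1 was highest and MOV10L1 lowest of the group.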
